A study of Mus musculus with 16 samples.

Results

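Polycomb repressive complex 1 (PRC1) and the demethylases of histone H3 lysine 27 act around the mark that PRC2 writes. The 9 genes described here, of 53379 in the deposited gene counts, were taken by mouse symbol: Cbx2, Cbx7, Cbx8, Ring1, Rnf2, Bmi1, Pcgf2, Kdm6a and Kdm6b. They were chosen for their roles and not by a rule on a measured value, though with earlier results of these data known. PRC2, whose core subunit is EED, trimethylates H3K27. Canonical PRC1 holds a chromobox (CBX) protein that binds this mark, a RING1 protein (Ring1 or Rnf2) that places ubiquitin on a lysine of histone H2A, and a PCGF partner (Bmi1 or Pcgf2) that the ligase needs. Kdm6a (UTX) and Kdm6b (JMJD3) belong to the family of enzymes that remove methyl groups from H3K27, so the list holds readers and erasers of the mark that Eed-/- cells can no longer make by PRC2.

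The cells came from the neocortex of mice at postnatal day 4, labelled CD1 and, by the study's methods, of a mixed C57BL/6 and CD1 background. MADM (mosaic analysis with double markers) is a scheme in which Cre-driven exchange between chromosomes labels sparse cells and sets their genotype together. All animals carried the MADM-7 cassettes, Emx1-Cre, which is active in cortical progenitors, and the XGFAP-lacZ transgene, driven by a human GFAP promoter, and all sorted cells were green (GFP+) and held paternal copies of chromosome 7. Eed+/+ cells came from control-MADM mice and Eed-/- cells from mosaic Eed-MADM mice. GFP+/lacZ+ cells, labelled astrocytes, gave 5 Eed+/+ and 5 Eed-/- libraries, and GFP+/lacZ- cells, labelled neurons, gave 2 and 3, each from an individual animal. The lacZ- gate takes every green cell without lacZ activity. A further library has labels that disagree on its cell type and entered no comparison.

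The 15 labelled libraries held between 211736 and 3178529 reads in genes. Of these, 10 met the limits that the study's methods give for its embryonic libraries, at least 1000000 uniquely aligned reads and at least 60% of reads uniquely aligned. The 5 outside were Eed+/+ astrocyte replicate 3, Eed-/- astrocyte replicates 1, 3 and 4, and Eed+/+ neuron replicate 2. Values are CPM (reads per 1000000 reads in genes) scaled by TMM factors (trimmed mean of M-values), called scaled CPM. The labelled cell types were checked with 12 markers each. The summed astrocyte markers ran from 2997 to 29731 CPM in the astrocyte libraries and from 7761 to 11593 CPM in the neuron-labelled libraries, in which all 12 had reads in every library. Within the limits they ran from 13031 to 29731 CPM in the astrocyte and from 7761 to 11593 CPM in the neuron-labelled libraries, without overlap, and over all libraries 10 of the 12 had a log2 difference above 0 in astrocytes (median 0.80, beside -0.34 over all genes), none of them called. The summed neuron markers ran from 5.22 to 4517 CPM in the astrocyte libraries and from 1184 to 2908 CPM in the neuron-labelled ones. The astrocyte markers thus separated the cell types within the limits and the neuron markers did not, so that the neuron-labelled libraries are called neurons by their label only. Their oligodendrocyte lineage markers summed to between 1257 and 3890 CPM, beside 1205 to 4703 CPM in Eed+/+ and 209 to 3510 CPM in Eed-/- astrocyte libraries. Eed, the targeted gene, had 46.1, 76.2, 3.71, 39.2 and 28.4 scaled CPM in Eed+/+ astrocytes and 0, 17.3, 0, 0 and 14.2 in Eed-/- astrocytes. In neurons it had 64.9 and 81.1 against 16.4, 38.0 and 33.4. Eed was lower in all 3 Eed-/- neuron libraries than in both controls, and among astrocytes only the Eed+/+ library outside the limits fell to the Eed-/- values. The gene counts hold deleted and undeleted exons together.

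The genes lie on 6 chromosomes (GRCm38), with none on the MADM chromosome 7. Chromosome 11 holds 4 of them: Cbx2 (chr11:119022962-119031270) and Cbx8 (chr11:119036305-119040969), with 5034 bases between them, Pcgf2 (chr11:97688823-97700497) and Kdm6b (chr11:69398508-69413675). Ring1 lies at chr17:34020792-34024680, Rnf2 at chr1:151458004-151500955, Bmi1 at chr2:18677018-18686629, Cbx7 at chr15:79915807-79971119 and Kdm6a at chrX:18162575-18279936. Exon bases shared with another gene on the opposite strand made up 4.11% of Kdm6b (Kdm6bos), 3.83% of Rnf2 (Trmt1l) and 1.54% of Cbx7 (Apobec3). The counts take no account of strand, so reads from these stretches cannot be assigned to either gene.

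Ring1 and Rnf2 are the paralogs that carry the ligase activity of the complex, and the 250 bases before the start of each are shown so that the pair can be compared. Both are from RefSeq (GRCm38.p6), on the minus strand, at chr17:34024681-34024930 and chr1:151500992-151501241, and are written 5′ to 3′ with the CG dinucleotides in capitals.
Ring1: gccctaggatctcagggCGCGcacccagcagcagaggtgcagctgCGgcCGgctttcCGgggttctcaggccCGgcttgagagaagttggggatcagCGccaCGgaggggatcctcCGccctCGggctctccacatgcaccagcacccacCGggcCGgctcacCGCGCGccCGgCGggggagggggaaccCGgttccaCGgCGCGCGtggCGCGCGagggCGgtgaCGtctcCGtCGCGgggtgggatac
Rnf2: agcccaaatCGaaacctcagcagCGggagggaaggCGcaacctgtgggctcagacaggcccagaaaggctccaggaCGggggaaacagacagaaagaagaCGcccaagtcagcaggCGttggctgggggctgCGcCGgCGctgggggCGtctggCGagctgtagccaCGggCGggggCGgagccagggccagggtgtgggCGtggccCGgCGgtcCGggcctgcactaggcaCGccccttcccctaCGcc
These stretches hold 30 CG dinucleotides before Ring1 and 20 before Rnf2. In the 300-base window from 250 bases before to 50 bases after the start, counted on the plus strand for CG, whose reverse complement is also CG, Ring1 had 37 and Rnf2 had 30. The median over 32851 RefSeq promoter windows was 7, and 94.4% of them held fewer than Ring1. A window was matched for 7 of the 9 genes (Cbx2 and Kdm6b did not), with 10 in Pcgf2 to 37 in Ring1, so the whole matched set lay above the median promoter in CG content. No binding or methylation was measured here.

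Kdm6b was the most abundant of the genes. Per kilobase of exon and over the 10 libraries within the limits, Kdm6b reached 44.1 ± 14.0 scaled CPM per kb (SD, n = 10), followed by Rnf2 at 19.5 ± 7.88. Next came the PCGF pair, Bmi1 at 12.9 ± 8.08 and Pcgf2 at 12.5 ± 6.97, then Ring1 at 8.37 ± 4.39 and Cbx8 at 6.97 ± 4.33. Cbx2 (3.12 ± 1.81), Kdm6a (2.84 ± 1.84) and Cbx7 (0.651 ± 0.820) were lowest. Kdm6b lay above Rnf2 in 9 of 10 libraries, Rnf2 above Bmi1 in 9 and Kdm6a above Cbx7 in 9. The other neighbours in this order overlapped: Bmi1 lay above Pcgf2 in 5 of 10 libraries, Cbx2 above Kdm6a in 5, and Pcgf2 above Ring1, Ring1 above Cbx8 and Cbx8 above Cbx2 in 7 each. The order was not the same in both labelled cell types, a difference that was not tested. Ring1 lay above Cbx8 in 6 of 6 astrocyte libraries (10.8 ± 3.74 against 5.16 ± 3.90) and in 1 of 4 neuron-labelled ones (4.74 ± 2.29 against 9.67 ± 3.83), and Pcgf2 above Bmi1 in 4 of 6 and 1 of 4.

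**Figure D1:**
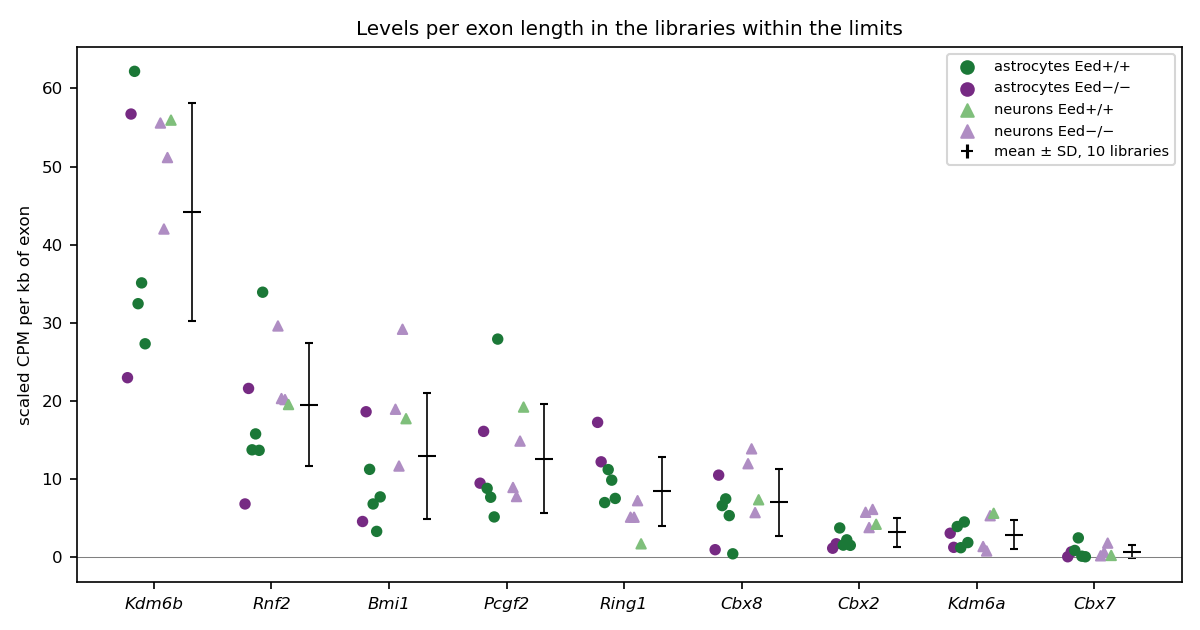
Scaled CPM per kilobase of exon for the 9 genes in the 10 libraries within the limits, astrocytes as circles and neuron-labelled libraries as triangles, coloured by genotype, with the mean ± SD over the 10 libraries as black bars. Kdm6b averaged 44.1 and Cbx7 0.651, and the genes from Bmi1 to Cbx8 overlap each other.

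Eed-/- astrocytes were compared with Eed+/+ astrocytes to ask whether cells that lose PRC2 on their own shift the levels of the readers and erasers of its mark. No gene of the list passed the test. Among 8956 genes the quasi-likelihood test of edgeR called 0 (0%, threshold an adjusted p of 0.05), and 108 (1.21%) had an unadjusted p under 0.05, none of them among the 7 members tested. Eed, the targeted gene, was not called either (log2 fold change -2.48 ± 1.68, edgeR unadjusted p = 0.139). A gene without a call may thus still differ. DESeq2 called 1 gene and limma-voom 0, again no member. The median log2 fold change of the 7 members was -0.25, beside -0.54 over all genes tested, with 3 above 0 and 4 below. Cbx2 and Cbx7 had too few reads to be tested there. The library numbers in the file names form 2 runs, which hold Eed+/+ replicates 1 and 2 with Eed-/- replicates 1 to 3, and the others. Within each run no member had an unadjusted p under 0.05, and the fitted log2 fold changes of Cbx8, for example, were 2.07 ± 2.66 and 1.49 ± 2.87. All neuron libraries are of the first run.

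Ring1, the RING1A ligase, had 22.5, 36.2, 0, 31.8 and 24.2 scaled CPM in Eed+/+ astrocytes and 0, 55.8, 23.6, 0 and 39.4 in Eed-/- astrocytes. Over all 10 libraries the groups overlapped fully, and the log2 fold change was 0.11 ± 1.58 (SE). In the libraries within the limits, both Eed-/- values lay above all 4 Eed+/+ values. There the log2 fold change was 0.74 ± 0.65, with an edgeR adjusted p of 1, and 6.42% of all genes were likewise higher without overlap. Rnf2, the RING1B ligase, had 56.6, 65.0, 78.0, 56.3 and 139.9 scaled CPM in Eed+/+ and 196, 27.9, 0, 0 and 89.0 in Eed-/- astrocytes. The highest and lowest values of Rnf2 were both in Eed-/- libraries, and its log2 fold change was -0.25 ± 1.43, or 0.41 with RLE size factors in place of TMM.

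The PCGF partners showed the same spread. Bmi1, known for holding back the Cdkn2a locus in neural stem cells, ranged from 0 to 44.5 scaled CPM in Eed+/+ and from 0 to 73.8 in Eed-/- astrocytes, with a log2 fold change of 0.03 ± 1.58. Pcgf2 (Mel18), its paralog, ranged from 18.0 to 124 and from 0 to 64.3, with a log2 fold change of -0.88 ± 1.51 over all libraries and of 0.063 within the limits.

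Of the chromobox genes, Cbx8 had the largest fitted difference of the 7 members tested. It had 24.1, 27.3, 0, 19.4 and 1.39 scaled CPM in Eed+/+ astrocytes and 237, 3.32, 38.4, 0 and 38.4 in Eed-/- astrocytes. The groups overlapped, and the value of 237 came from 140 reads in Eed-/- replicate 1, a library outside the limits in which 4462 genes had reads. That library also had 13168 CPM of summed microglia markers and 8829 CPM of summed erythroid markers, while the 5 Eed+/+ astrocyte libraries had at most 330.3 and 5.24. The other 2 Eed-/- astrocyte libraries outside the limits also held such reads, with 2813 CPM of microglia and 52.0 CPM of erythroid markers in replicate 3 and 0 and 11925 CPM in replicate 4, and both Eed-/- libraries within the limits had 0 of either. The part of these markers in the member values was not tested. The log2 fold change of Cbx8 was 2.26 ± 1.59 (edgeR adjusted p = 1) over all libraries and 0.21 ± 1.37 within the limits. Cbx2 had 30, 17, 0, 20 and 9 reads in Eed+/+ and 0, 7, 0, 0 and 7 in Eed-/- astrocytes. Its mean was 7.50 ± 5.69 against 2.35 ± 3.33 scaled CPM (SD, n = 5 each), which a two-sided exact permutation test did not separate (p = 0.135). Without Eed+/+ replicate 3, which had 0 reads, that p was 0.0397, and within the limits it was 0.467. Cbx7 had 10, 42, 0, 1 and 0 reads against 0, 0, 0, 0 and 4. Of the 10 libraries 6 gave no Cbx7 read, and the exact permutation p was 0.286. A count of 0 allows up to 3 reads, which is between 1.59 and 14.2 CPM in the astrocyte libraries without a Cbx7 read, for counting error only.

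Kdm6b, which signals in many tissues induce, had 433, 225, 306, 244 and 189.7 scaled CPM in Eed+/+ astrocytes and 50.8, 159.5, 62.0, 0 and 394 in Eed-/- astrocytes. The 3 lowest Eed-/- values were those of the 3 libraries outside the limits. The log2 fold change was -1.03 ± 1.24 over all libraries and 0.03 ± 0.47 within the limits. Kdm6a had 32.5, 9.71, 0, 37.4 and 15.2 scaled CPM against 0, 25.3, 0, 0 and 10.1, with a log2 fold change of -1.30 ± 1.54, and -0.40 ± 1.02 within the limits. Every Kdm6a value of 0 was in a library outside the limits. Kdm6a is X-linked and escapes X inactivation. Xist, which is transcribed from an inactive X chromosome, had 639 and 178 reads in Eed+/+ astrocyte replicates 3 and 5 and at most 3 reads in the other 13 libraries. The former 2 libraries had no read of the Y-linked Ddx3y, Kdm5d and Eif2s3y, and 4 and 1 reads of the Y-linked Uty. Kdm6a in those libraries was 0 and 15.2 scaled CPM.

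**Figure D2:**
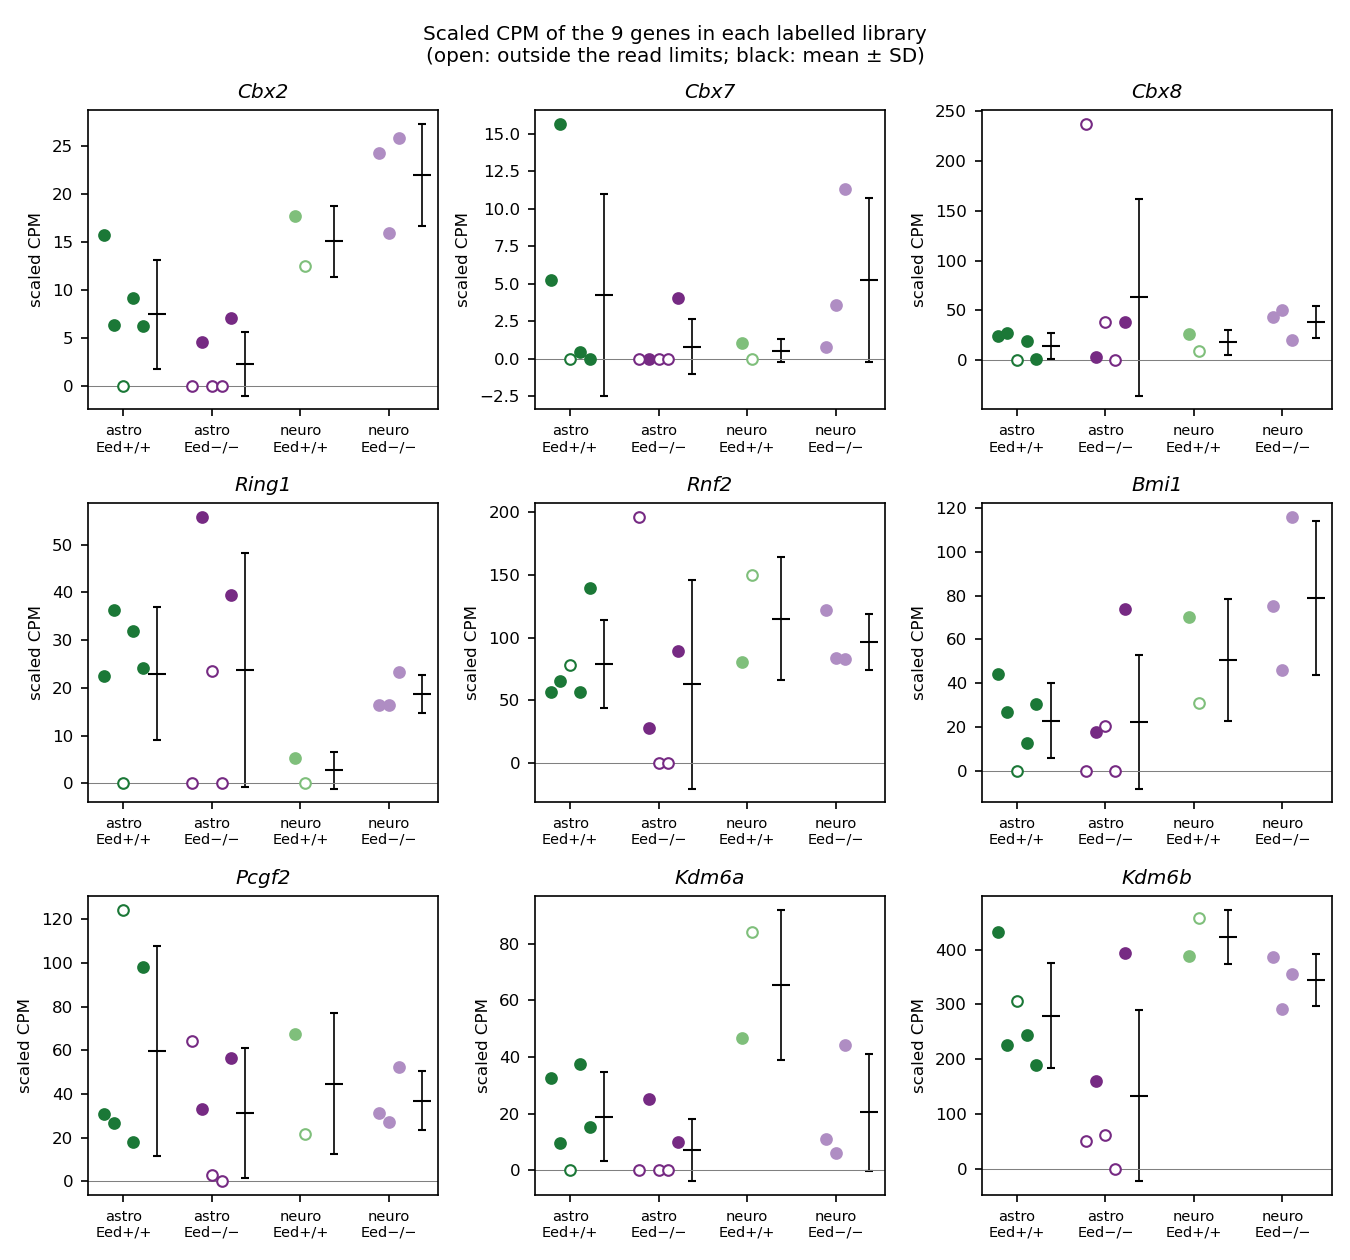
Scaled CPM of each gene in every labelled library by group, filled points within the limits and open points outside them, with the group mean ± SD as black bars and a linear axis of its own in each panel. Most values of 0 are open points, and the single Cbx8 value of 237 is an open point of the Eed-/- astrocytes.

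The neuron-labelled libraries were compared by genotype in the same way, and no member passed the test. The Ring1 values of all 3 Eed-/- libraries lay above both Eed+/+ values, as for 15.6% of all genes, and those of Kdm6a and Kdm6b lay below them, as for 7.72%. The edgeR test called 0 of 11862 genes (0%), and 862 (7.27%) had an unadjusted p under 0.05, none of them among the 8 members tested. The targeted gene Eed was not called here either (log2 fold change -1.42 ± 0.71, edgeR unadjusted p = 0.0651, adjusted p = 0.694). DESeq2 called 27 genes and limma-voom 0, without a member. Without Eed+/+ replicate 1, which leaves a control library outside the limits alone and assumes that it varies like the Eed-/- libraries, edgeR called 2601 of 12635 genes, again without a member (adjusted p = 0.0631 for Ring1 and 0.088 for Kdm6a). The median log2 fold change of the 8 members was 0.01, beside 0.15 over all genes. Neuron markers ran with genotype in these libraries: their median log2 fold change was 1.55, with 9 of 12 above 0, and 4 had an unadjusted p under 0.05, all higher in Eed-/- libraries, though none was called. Their summed level was 1958 and 1184 CPM in the Eed+/+ and 1690, 2446 and 2908 CPM in the Eed-/- libraries, which overlap. The part of these markers in the neuron-labelled values was not tested.

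Ring1 had 5.37 and 0 scaled CPM in Eed+/+ neurons, from 10 and 0 reads, and 16.4, 16.4 and 23.3 in Eed-/- neurons, from 21, 32 and 37 reads. The groups did not overlap. The log2 fold change was 2.25 ± 1.07 (95% interval -0.07 to 4.57, edgeR adjusted p = 0.686). The library without a Ring1 read, Eed+/+ replicate 2, had 343640 reads in genes, so that a count of 0 allows up to 8.73 CPM. Without it the log2 fold change was 1.76 ± 1.00 (edgeR adjusted p = 1), a fit in which 1 control library is left and the spread comes from the Eed-/- libraries alone. The difference between the cell types in the genotype effect on Ring1 was -2.48 ± 2.63 on the log2 scale (edgeR interaction term, adjusted p = 1).

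Rnf2 had 80.5 and 149.8 scaled CPM in Eed+/+ and 122, 83.6 and 83.1 in Eed-/- neurons, and the groups overlapped (log2 fold change -0.38 ± 0.63, and 0.22 within the limits). Bmi1 (70.3 and 31.2 against 75.1, 46.2 and 116) and Pcgf2 (67.6 and 21.8 against 31.3, 27.2 and 52.2) overlapped as well. Their log2 fold changes were 0.51 ± 0.70 and -0.41 ± 0.74. Cbx2 had 17.7 and 12.5 against 24.3, 15.9 and 25.8 scaled CPM (0.40 ± 0.83), and Cbx8 had 26.8 and 9.36 against 43.8, 50.8 and 20.8 (0.91 ± 0.82). Cbx7 had 2 and 0 reads against 1, 7 and 18, and was below the filter (two-sided exact permutation p = 0.40, where 0.1 is the smallest that 2 against 3 libraries allow).

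The values of both demethylase genes lay lower without overlap in Eed-/- neurons. Kdm6a had 46.7 and 84.3 scaled CPM in Eed+/+ neurons and 10.95, 6.16 and 44.1 in Eed-/- neurons. The value of 84.3 came from 27 reads in Eed+/+ replicate 2, a library outside the limits, so that within them 1 control library is left. The highest Eed-/- value was close to the lower control, and the log2 fold change was -1.80 ± 0.88 (95% interval -3.70 to 0.10, edgeR adjusted p = 0.686). Kdm6b had 389 and 459 against 386, 292 and 356 scaled CPM, so that its groups were separated by the gap between 386 and 389 alone, with a log2 fold change of -0.42 ± 0.61. Uty, the Y-linked paralog of Kdm6a, had 23.6 and 106 against 25.8, 10.8 and 35.3 scaled CPM. Its groups overlapped, and its log2 fold change of -1.56 ± 0.85 (edgeR adjusted p = 0.723) was close to that of Kdm6a. The Y-linked Ddx3y, Kdm5d and Eif2s3y had log2 fold changes of -1.63, -1.37 and -1.28 (edgeR adjusted p from 0.672 to 0.739). Their groups overlapped, with 102 and 337 against 85.3, 41.6 and 110 scaled CPM for Ddx3y. Kdm5d had 27.9 and 53.1 against 11.7, 10.3 and 28.3, and Eif2s3y had 130 and 325 against 150, 88.8 and 71.1. In each of them the higher control was replicate 2, a library outside the limits. All 5 neuron libraries had reads of Ddx3y, Kdm5d and Eif2s3y and at most 2 Xist reads.

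**Figure D3:**
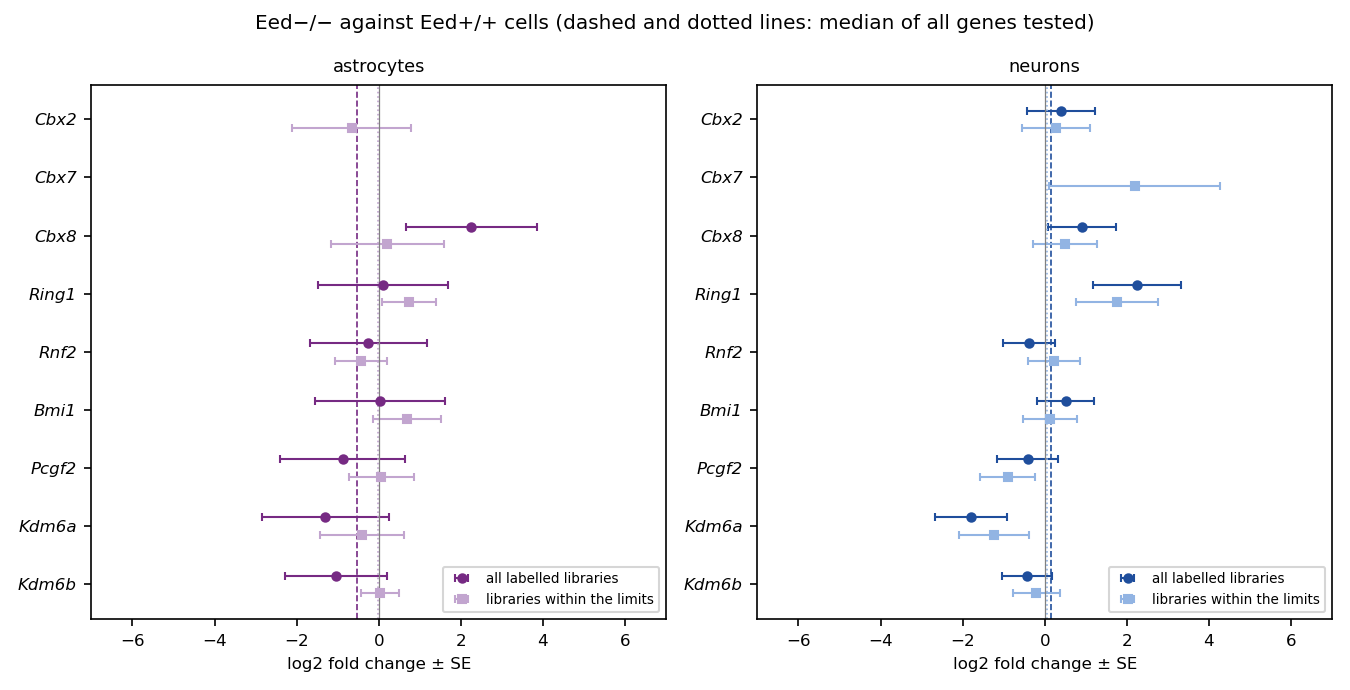
Log2 fold change ± SE of Eed-/- against Eed+/+ cells from edgeR, astrocytes on the left and neurons on the right, over all labelled libraries (circles) and those within the limits (squares), with vertical lines at the median of all genes tested. In neurons Ring1 lies at 2.25 and Kdm6a at -1.80, and Cbx8 in astrocytes moves from 2.26 to 0.21 when the libraries outside the limits are left out.

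Astrocytes were compared with neuron-labelled cells over both genotypes, and no member was called. In the fit over all 15 libraries 2 of 13367 genes passed (0.015%), 736 (5.51%) had an unadjusted p under 0.05, and no member was among either. No member was called, or had an unadjusted p under 0.05, in Eed+/+ cells alone (0.00748% of genes called, 2.29% at an unadjusted p under 0.05), in Eed-/- cells alone (0.0598% and 7%) or for the interaction (0.0524% and 3.61%). The genes called in Eed-/- cells included 3 erythroid markers, those of the interaction 2, and all 8 microglia markers had an unadjusted p under 0.05 in Eed-/- cells, higher in astrocytes. Their part in the member differences over all libraries was not tested. Over the 9 members the median log2 difference was -0.57, beside -0.34 over all genes, with 4 above 0 and 5 below. In bulk libraries, fewer cells of a type and less RNA per cell cannot be told apart.

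In the libraries within the limits, Ring1 ranged from 22.5 to 55.8 scaled CPM in 6 astrocyte libraries and from 5.37 to 23.3 in 4 neuron-labelled libraries. The ranges met between 22.5 and 23.3. The log2 difference was 1.85 ± 0.70 (edgeR adjusted p = 0.557), with an unadjusted p under 0.05 as for 7.69% of all genes. Over all libraries it was 1.60 ± 1.37, or 1.84 ± 1.52 with a term for the run of library numbers. Cbx2 ranged from 4.65 to 15.7 in astrocytes and from 15.9 to 25.8 in neuron-labelled libraries, without overlap, as did 2.05% of all genes in this direction. With RLE size factors the Cbx2 ranges overlapped. Its log2 difference was -1.44 ± 0.87 within the limits and -2.002 ± 1.27 over all libraries (edgeR adjusted p = 1). In Eed-/- cells alone it was -3.01 ± 1.75 over all libraries (edgeR adjusted p = 0.877), where 3 of the 5 astrocyte libraries had no Cbx2 read. Bmi1 had a log2 difference of -1.08 ± 0.55 within the limits (edgeR adjusted p = 0.675). For Rnf2, Pcgf2, Cbx8, Kdm6a and Kdm6b the log2 differences within the limits lay between -0.77 and -0.22 (edgeR adjusted p from 0.804 to 0.975), while over all 15 libraries Cbx8 (0.20 ± 1.19) and Pcgf2 (0.095 ± 1.16) lay above 0. The within-limits value of Cbx7, with 0 to 42 reads per library, was 0.40 ± 1.70.

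Shares within a library need no scaling between libraries. They were added after the counts had been seen and are given without a test. Ring1 made up 33.6%, 41.5%, 41.9% and 18.1% of the Ring1 and Rnf2 reads per exon length in the Eed+/+ astrocyte libraries within the limits and 71.8% and 36.1% in the Eed-/- ones. In neuron-labelled libraries its share was 7.82% (exact 95% binomial interval 3.83% to 13.8%) in the Eed+/+ library and 14.6%, 20.0% and 26.3% in the Eed-/- libraries. Rnf2 thus gave the larger share in 9 of these 10 libraries, and the exception, at 71.8%, was Eed-/- astrocyte replicate 2. The share of Pcgf2 in the Pcgf2 and Bmi1 pair ranged from 43.9% to 78.4% in astrocytes and from 32.0% to 52.0% in neuron-labelled libraries, where the 3 Eed-/- libraries had 32.0%, 39.9% and 33.7%. Kdm6a made up between 1.72% and 11.6% of the Kdm6a and Kdm6b pair over all 10 libraries, so that Kdm6b dominated in each.

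**Figure D4:**
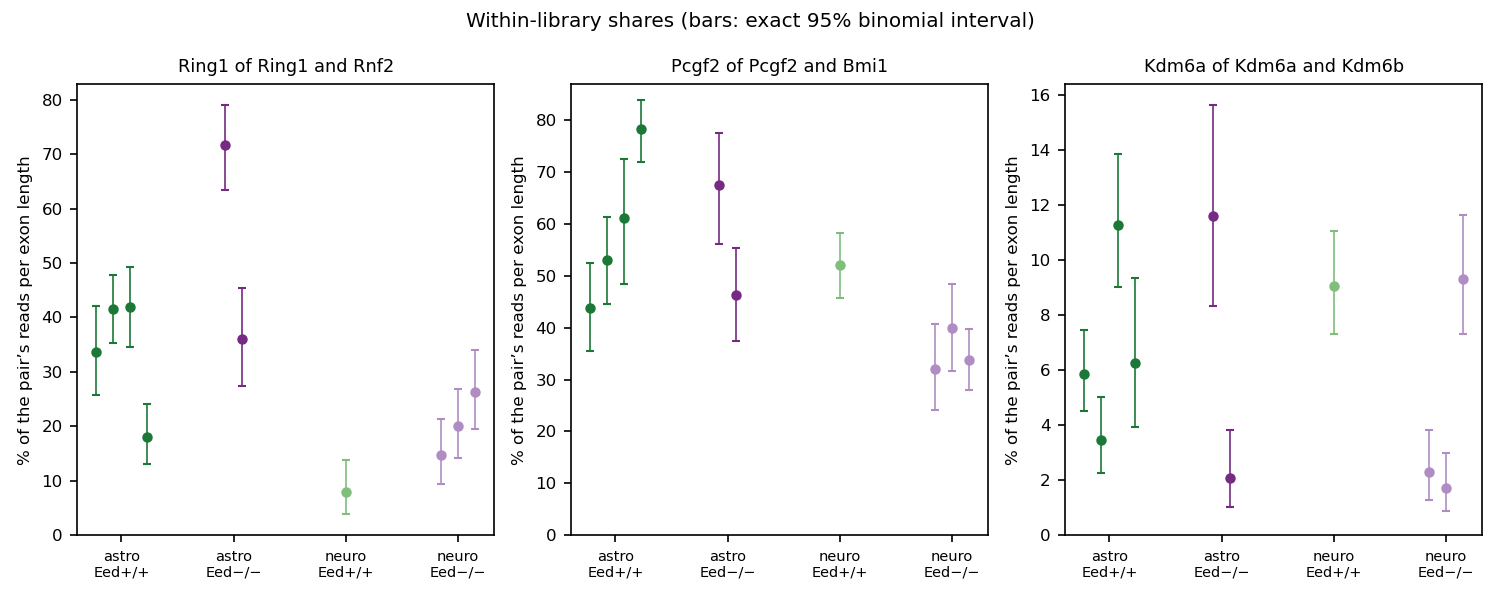
Share of Ring1, Pcgf2 and Kdm6a in the reads per exon length of its paralog pair, in percent, for each library within the limits by group, with exact 95% binomial intervals that cover counting error only. The Ring1 share runs from 7.82% in the Eed+/+ neuron library to 71.8% in an Eed-/- astrocyte library, and the Kdm6a share stays at or below 11.6%.

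The other genes of the pathway were read from lists of their own. Of 5 other canonical PRC1 genes (Cbx6, Phc1, Phc2, Phc3, Scmh1), all had a log2 fold change below 0 in Eed-/- neurons, with a median of -1.31 beside 0.15 over all genes, and 2 had an unadjusted p under 0.05 in edgeR, as did 7.27% of all genes. The smallest was that of Phc3, a polyhomeotic subunit, at -2.03 ± 0.74 (edgeR adjusted p = 0.668), so that none was called. Of the 2 control libraries of this comparison, 1 is outside the limits. Neuron markers also ran with genotype in the same fit (median log2 fold change 1.55), and their part in these values was not tested. Of the variant PRC1 genes, whose complexes lack the CBX proteins of canonical PRC1, 14 of 15 were tested in neurons. In edgeR 3 of them had an unadjusted p under 0.05, all lower. The median over the 14 was -0.53, and Bcorl1 was lowest in p (-2.52 ± 0.90, edgeR adjusted p = 0.658). The smallest p of the 5 deubiquitination genes was that of Asxl1 (-1.59 ± 0.71, adjusted p = 0.679), of the Kdm6a partners that of Ncoa6 (-1.42 ± 0.63, adjusted p = 0.673), and of the 11 PRC2 genes that of Phf1 (-2.14 ± 0.89, adjusted p = 0.67). In astrocytes against neuron-labelled cells, a comparison that shares the neuron libraries, the 5 other canonical PRC1 genes had a median log2 difference of -1.43, beside -0.34 over all genes. In Eed+/+ cells alone it was -1.28 beside 0.080, and in Eed-/- cells alone -1.01 beside -0.72. In the genotype comparison of astrocytes the median of these canonical genes was -0.35 beside -0.54, with 1 of the 5 above 0 (Cbx6, 0.88 ± 1.51). In that comparison no gene of these pathway lists had an unadjusted p under 0.05. The smallest p per list there belonged to Phc2 (log2 fold change -0.97), Kdm2b (-2.79), Bap1 (-1.01), Kmt2d (-1.10) and Eed (-2.48), each with an edgeR adjusted p of 1.

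The genes whose levels ran most like each member were found by Pearson's r of log2(scaled CPM + 1) over the 10 libraries within the limits, among 12294 protein-coding genes. These libraries share cell types and depth, and the highest of so many correlations is a description only. Ring1 was closest to Sparc, which encodes a matrix glycoprotein (r = 0.962), Cadm1 (0.911) and Ltbr (0.911). Kdm6b was closest to Dnah7a (0.969), Cldn11 (0.947) and Mzf1 (0.947), Kdm6a to genes that include Fndc3a (0.865) and Ubr1 (0.858), and Rnf2 to Trim32 (0.948), Hinfp (0.929) and Tsnax (0.923). Bmi1 was closest to Rnf152, Abhd2 and Rhou, Pcgf2 to Zbtb43, Nckap1 and Zfp384, Cbx2 to Sik1, Rab27b and Tppp, Cbx7 to H6pd, Lacc1 and Tenm3, and Cbx8 to Rcl1, Rab28 and Prps1. Among the members themselves, Bmi1 and Kdm6b ran most alike (r = 0.769) and Cbx2 and Ring1 least (r = -0.683). No member was among the closest genes of another.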

How the data were processed

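RNA-seq was measured in 16 Smart-seq v2 libraries of sorted cells. The deposited values are raw gene counts that the authors made with STAR (GRCm38, mm10, per the labels; annotation release not given in the sources used here), in the column that ignores strand. Identifiers were matched to GENCODE M21 (53274 of 53379), and exon length and overlap were taken from it. The 4 groups come from the labels, and 1 library whose title and cell type label disagree was left out. The study set 5 libraries aside that its methods do not name, so all 15 labelled libraries stayed in.

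The 9 genes and the other lists were chosen with earlier results of these data known. Tests were edgeR 4.0.16 quasi-likelihood fits (TMM, filterByExpr, robust, two-sided, Benjamini-Hochberg over all genes tested) in R 4.3.3: genotype within the libraries of a cell type, cell type and interaction over all 15. Members left out by the filter were given a two-sided exact permutation test. Alternatives were RLE size factors, no filter, DESeq2 1.42.0, limma-voom 3.58.1 with quality weights, the read limits, a replicate block, a term for the 2 runs of library numbers in the file names, each run alone (added later), and each library left out. The fits were run on simulated counts, where recovery of changed genes was required only at a spread set below that of these data. The estimated coefficient of variation between libraries was 1.38 in astrocytes, 0.58 in neurons and 1.28 over all 15. Recovery at that spread is not given here, so the simulation does not show what the tests can find in these data. A floor of 3 reads was set for counts of 0. Intervals and floors cover counting error only, since reads carried no molecular identifiers. The genes named are the 9 members, Eed, the gene of smallest p in each list, Xist and the Y-linked genes beside Kdm6a, and the 3 protein-coding genes most like each member. Lists of few genes are spelled out. In all, 1 gene of the canonical PRC1 list and 1 of the genes most like a member are not reported here.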

Additional observations from a re-analysis of the deposited data

Results flagged for a closer look

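Of 18 sets of 5 libraries (the 9 genes in each astrocyte group), 4 held a value past Dixon's ratio at the 95% level. For normally distributed values chance alone gives this in about 1 in 20 sets. The values here include counts of 0 from libraries of low depth, and the sets share libraries, so that rate does not apply. Cbx8 reached 237 scaled CPM in Eed-/- astrocyte replicate 1, one of 3 Eed-/- libraries outside the limits with microglia or erythroid marker reads, beside at most 38.4 in the other 4. Rnf2 reached 140 scaled CPM in Eed+/+ astrocyte replicate 5, beside at most 78.0. Bmi1 reached 73.8 scaled CPM and Cbx7 4.05 in Eed-/- astrocyte replicate 5, beside at most 20.7 for Bmi1 and 0 for Cbx7 in the other 4. That library is within the read limits, and its Cbx7 value rests on 4 reads. With the other 4 Cbx7 values at 0, any value above 0 gives the highest ratio, and a count of 0 allows 7.44 to 14.2 CPM in 3 of those 4 libraries, so the Cbx7 value cannot be said to stand apart.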

How the results depend on the processing

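No member passed the threshold of 0.05 in any of 1020 values over 51 fitted member differences and their alternatives. Of these, 932 kept their direction and 88 reversed, 47 of them outside the runs that left out a library. Of 72 group levels set against an alternative, 1 moved by more than its SD (Cbx2 in Eed-/- astrocytes, 5.87 scaled CPM within the limits). The limits could move only the Eed-/- astrocyte means that far. Eed-/- neurons lose no library to them, and the loss of a single library cannot move an Eed+/+ mean by its SD. The count is therefore no measure of stability. Depth limits what can be seen of Cbx2 and Cbx7, which had at most 42 reads in a library, and the cause of the changes below was not tested. RLE size factors moved the median log2 fold change of all genes from -0.54 to -0.37 in the genotype comparison of astrocytes.

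Counts of genes called at adjusted p of 0.05 and then of 0.2, the study's threshold for astrocytes, changed as follows. For genotype in astrocytes (0 and 0) they were 0 and 1 with RLE, 5 and 87 without a filter, 1 and 1 with DESeq2, 0 and 1 within the limits, 46 and 370 in a fit over all 15 libraries, 4 and 4 in the first run of library numbers, and 0 to 1 and 0 to 316 with a library left out, the highest without Eed+/+ replicate 3 and without Eed-/- replicate 5. For genotype in neurons (0 and 0) they were 0 and 1 with RLE, 127 and 284 without a filter, 27 and 150 with DESeq2, 0 and 13 with limma-voom, 1 and 4 within the limits, 3 and 3 over all 15 libraries, and 0 to 2601 and 0 to 5609 with a library left out, the highest without Eed+/+ replicate 1. For cell type in Eed+/+ cells (1 and 5) they were 6 and 18 with RLE, 2 and 4 without a filter, 8 and 12 with DESeq2, 0 and 0 with limma-voom or within the limits, 7 and 19 with a term for the run, and 0 to 5 and 0 to 31 with a library left out. In Eed-/- cells (8 and 15) they were 7 and 54, 3 and 9, 13 and 38, 5 and 9, 0 and 0, 10 and 48, and 0 to 26 and 0 to 1948 in the same order. For the mean of both genotypes (2 and 6) they were 2 and 58 with RLE, 0 and 4 without a filter, 5 and 33 with DESeq2, 0 and 0 with limma-voom or within the limits, 0 and 8 with the run term, and 0 to 5 and 0 to 1027 with a library left out. For the interaction (7 and 13) they were 21 and 55 with RLE, 2 and 4 without a filter, 9 and 16 with DESeq2, 0 and 0 with limma-voom or within the limits, 8 and 9 with the run term, and 1 to 12 and 1 to 30 with a library left out.

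Replicate numbers are shared between groups, but no source says that they mark an animal, litter or day, and the correlation of same-numbered libraries' deviations ran from -0.25 to 0.16, so that the numbers were not taken as pairs; whether some libraries share an animal was not tested. With the replicate block the counts were 0 and 0 for genotype in astrocytes, 0 and 1 in neurons, 0 and 0 for cell type in Eed+/+ cells, 5 and 5 in Eed-/- cells, 0 and 0 for their mean, and 2 and 3 for the interaction. The block reversed Bmi1 (-0.81) and Ring1 (-0.59) by genotype in astrocytes, Cbx7 (-1.05) and Pcgf2 (-0.48) in the mean by cell type, Cbx8 (0.63) and Pcgf2 (-0.44) by cell type in Eed+/+ cells, Ring1 (-0.47) in Eed-/- cells, and Cbx8 (-0.43) and Kdm6a (-1.17) in the interaction.

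The other reversed log2 values were these. By genotype in astrocytes, Bmi1 was -0.050 without a filter, -0.014 over all 15 libraries and -1.46 in the first run, Cbx8 was -0.40 with limma-voom, Kdm6b 0.032 and Pcgf2 0.063 within the limits, Pcgf2 also 0.27 with limma-voom and 0.38 in the first run, Ring1 -0.15 in the first run, and Rnf2 0.41 with RLE and with DESeq2 and 0.52 in the first run. In neurons, Rnf2 was 0.056 with limma-voom and 0.22 within the limits. By cell type in Eed+/+ cells, Cbx8 was 0.60 with the run term and Pcgf2 -0.75 with limma-voom, -0.72 within the limits and -0.084 with the run term. In Eed-/- cells, Cbx8 was -1.22 with limma-voom and -0.93 within the limits, Pcgf2 0.33 with RLE and with DESeq2 and 0.28 within the limits, and Rnf2 0.16 with RLE and with DESeq2. In the mean of both genotypes, Cbx8 was -0.66 with limma-voom and -0.77 within the limits, and Pcgf2 -0.73, -0.22 and, with the run term, -0.24. In the interaction, limma-voom gave Cbx8 -1.11 and Pcgf2 0.051, the limits gave Bmi1 0.56, Cbx8 -0.32, Kdm6b 0.24 and Pcgf2 0.99, and Rnf2 was 1.01 with RLE and 1.02 with DESeq2.

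With each library left out in turn, the values that reversed ran, by genotype in astrocytes, from -1.18 to 0.44 for Bmi1, -0.43 to 0.42 for Ring1 and -1.39 to 0.18 for Rnf2, and in neurons from -0.91 to 0.61 for Pcgf2 and -0.78 to 0.22 for Rnf2. By cell type they ran in Eed+/+ cells from -0.88 to 0.65 for Cbx8 and -0.20 to 1.45 for Pcgf2, in Eed-/- cells from -0.95 to 1.03 for Cbx8, -0.60 to 0.13 for Pcgf2 and -0.22 to 0.71 for Ring1, and in the mean from -1.68 to 1.56 for Cbx7, -0.61 to 0.68 for Cbx8 and -0.21 to 0.61 for Pcgf2. In the interaction they ran from -0.67 to 1.60 for Cbx8, -1.01 to 1.61 for Kdm6a and -1.18 to 0.29 for Rnf2. The difference in mean Cbx2 between Eed-/- and Eed+/+ astrocytes ran from -7.03 to -3.10 scaled CPM, with an exact permutation p under 0.05 only without Eed+/+ replicate 3.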

Other observations

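The library whose labels disagree on its cell type had 221456 reads in genes, 2397 genes with reads and 17.7% of its reads uniquely aligned. It gave 0 reads for each of the 9 genes and for Eed, where a count of 0 allows up to 13.5 CPM. Among the labelled libraries, Eed-/- astrocyte replicate 4 also gave no read for any of the 9 genes. With 211736 reads in genes it allows up to 14.2 CPM, a level that Kdm6b, Rnf2 and Pcgf2 exceeded in all 10 libraries within the limits. Eed-/- astrocyte replicate 1 gave reads for 4 of the 9 genes, Eed+/+ astrocyte replicate 3 for 3, and each library within the limits for 8 or 9. Where Eed+/+ astrocyte replicate 3 had no read of 6 members, it had 67 reads of Pcgf2, 42 of Rnf2 and 165 of Kdm6b.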
